A study of Mus musculus with 24 samples.

Results

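The genes described here are 26 genes of cholesterol synthesis and of its control by the transcription factor SREBP-2, chosen by name as a gene list, out of 41388 genes counted in mouse liver. All 26 passed the limit on low counts and were among the 13052 genes tested. The study asked how the loss of lipin 1 in adipocytes, an enzyme that makes diacylglycerol for triglyceride storage, alters the liver of mice on a low-fat or a high-fat diet. Bulk RNA sequencing was carried out on livers of male mice on a C57BL/6J background in 4 groups, each with libraries of 5 single mice and 1 library of pooled RNA of the group. Adn-Lpin1-/- mice carried floxed Lpin1 alleles and a Cre recombinase driven by the adiponectin promoter, which acts in adipocytes, so that the liver itself was not targeted. WT mice were littermates with floxed Lpin1 and without Cre. From 8 weeks of age, the WT LFD and Adn-Lpin1-/- LFD groups ate a low-fat diet with 10% of kcal from fat, and the WT HFD and Adn-Lpin1-/- HFD groups a high-fat diet with 60% of kcal from fat. The length of feeding is 5 weeks by the methods of the study and 16 weeks by its sample labels, and the mice were fasted for 4 hours before the livers were taken. The 5 WT LFD libraries held 36260187 to 45999456 counts with a median of 40777580. The Adn-Lpin1-/- LFD libraries held 51095146 to 61435897 counts and those of WT HFD 54036184 to 62249701, with medians of 52955319 and 57124312. The deepest were those of Adn-Lpin1-/- HFD with 57550362 to 81072794 counts, median 62306028. Every WT LFD library was shallower than every library of the other groups, so that depth and group cannot be told apart in comparisons with WT LFD.

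Cells make cholesterol from acetyl-CoA. The mevalonate part of the pathway joins acetyl-CoA units and turns them into isoprenoid units, which are condensed to farnesyl diphosphate and, on a side branch, geranylgeranyl diphosphate. The squalene and sterol part joins farnesyl diphosphate to squalene, closes it to lanosterol and removes methyl groups and shifts double bonds until cholesterol is reached. SREBP-2 is held in the endoplasmic reticulum with its escort Scap by the Insig proteins while sterols are plentiful, and when sterols fall it moves to the Golgi, is cleaved, and activates the genes of the pathway. The liver is a main site of this synthesis and of the handling of lipoprotein cholesterol. The 26 genes were grouped into 8 enzymes of the mevalonate part, 12 enzymes of the squalene and sterol part, 4 genes of SREBP-2 control, and the pair of Stard4, a sterol carrier, and Mylip, a ubiquitin ligase that directs lipoprotein receptors to degradation. Mylip is a target of the sterol-activated LXR receptors and not of SREBP-2.

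The libraries held the RNA of hepatocytes at high levels in all 4 groups, with albumin (Alb) at 78714, 67484, 80047 and 63251 mean CPM (the count scaled to the library size after TMM normalization) in the groups WT LFD, Adn-Lpin1-/- LFD, WT HFD and Adn-Lpin1-/- HFD, respectively. In bulk liver RNA, fewer cells of a type and less RNA per cell cannot be told apart. Mouse 5 of WT HFD stood apart in this pathway. It had the lowest level of its group for 19 of the 26 genes, and its mean over the 20 enzymes was -0.37 on the log2 scale relative to the mean of the 20 mice, whereas the other 4 mice of its group lay between 0.36 and 0.72. Mouse 4 of Adn-Lpin1-/- HFD had the lowest level of all 20 mice for 13 of the 26 genes, and its mean over the enzymes was -0.91. For comparisons that involve the HFD groups, the number of the 26 genes called is therefore also given without the mouse whose absence changes it. At the other end, mouse 4 of WT HFD had the highest level of all 20 mice for 12 of the 26 genes. Nothing in the labels sets either mouse apart. Values of single mice are listed in the order of mouse 1 to mouse 5.

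Averaged over the 20 mice and per kilobase of annotated gene length (RPKM, the CPM divided by that length), the levels spanned from 1.64 to 134. The most abundant were Sc5d (134 RPKM), the desaturase of the next to last steps, Fdps (116 RPKM), the farnesyl diphosphate synthase, and Ebp (93.9 RPKM), the sterol isomerase. Insig1 (48.8 RPKM), Insig2 (47.2 RPKM) and Hmgcs1 (33.1 RPKM), the HMG-CoA synthase, followed. The scarcest were Ggps1 (1.64 RPKM), the synthase of geranylgeranyl diphosphate, Lbr (1.88 RPKM), the lamin B receptor with sterol reductase activity, and Mylip (3.27 RPKM). Tm7sf2, which encodes the other sterol C14 reductase, was at 28.2 RPKM and so far above Lbr. The mean level was lowest in Adn-Lpin1-/- HFD for 20 of the 26 genes and highest in WT HFD for 15. The spread between mice of a group was wide for some genes. The coefficient of variation over the genes of a group had a median between 18.3% (Adn-Lpin1-/- LFD) and 23.3% (WT LFD), and reached 57.9% for the most variable gene of Adn-Lpin1-/- HFD, Sqle. The counts of some genes are less certain. Acat2 has a close paralog, Acat3, beside it, and Fdft1, Ggps1 and Tm7sf2 overlap the ends of Ctsb, Arid4b and Vps51, by 767, 170 and 532 bases. Ctsb and Arid4b lie on the opposite strand and Vps51 on the same strand, and how reads in these overlaps were assigned was not tested. Lss, Mvd and Scap overlap the annotated genes 4930483K19Rik, Gm20388 and 5830462I19Rik on the opposite strand over 11268, 9827 and 3383 bases. These held a mean of 4.25, 0 and 7.7 counts in a library, and whether reads there were left out as ambiguous was not tested.

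The group levels are given as mean ± SD in CPM (n = 5 mice each), with WT before Adn-Lpin1-/- for each diet. In the mevalonate part, Acat2 of the first step averaged 46.1 ± 5.62 and 60.4 ± 5.71 CPM on the LFD and 50.04 ± 9.07 and 44.6 ± 6.95 CPM on the HFD. Hmgcs1 averaged 78.5 ± 44.5 and 104 ± 39.03 CPM on the LFD and 133 ± 52.5 and 113 ± 41.6 CPM on the HFD. The means of Acat2 were closer together than those of Hmgcs1, the mice of which varied widely in each group. Mvk averaged 12.6 ± 3.55 and 11.1 ± 1.19 CPM on the LFD and 18.6 ± 4.63 and 10.9 ± 2.29 CPM on the HFD. Pmvk averaged 24.04 ± 5.54 and 30.2 ± 5.61 CPM on the LFD and 28.1 ± 6.51 and 14.5 ± 3.52 CPM on the HFD. Mvd averaged 9.37 ± 4.73 and 11.3 ± 3.38 CPM on the LFD and 8.60 ± 3.19 and 6.48 ± 2.93 CPM on the HFD. Mvk had its highest mean in WT HFD, and Pmvk and Mvd in Adn-Lpin1-/- LFD. Idi1 averaged 11.1 ± 4.09 and 9.34 ± 3.27 CPM on the LFD and 23.4 ± 9.91 and 6.34 ± 2.97 CPM on the HFD. Fdps averaged 156 ± 53.6 and 201 ± 39.04 CPM on the LFD and 145 ± 49.8 and 75.1 ± 20.6 CPM on the HFD. Ggps1 averaged 3.698 ± 0.362 and 3.88 ± 0.559 CPM on the LFD and 4.13 ± 0.324 and 3.82 ± 0.337 CPM on the HFD. Idi1 was highest in WT HFD, Fdps highest in Adn-Lpin1-/- LFD, and Ggps1 nearly level over the groups.

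In the squalene and sterol part, Fdft1 averaged 73.3 ± 7.98 and 64.9 ± 13.003 CPM on the LFD and 90.04 ± 14.6 and 56.6 ± 6.81 CPM on the HFD. Sqle averaged 26.6 ± 9.91 and 29.9 ± 14.6 CPM on the LFD and 34.9 ± 15.5 and 11.3 ± 6.57 CPM on the HFD. Lss averaged 37.5 ± 6.40 and 38.4 ± 6.57 CPM on the LFD and 41.1 ± 7.97 and 28.5 ± 3.86 CPM on the HFD. Each had its lowest mean in Adn-Lpin1-/- HFD. Cyp51 averaged 70.2 ± 17.7 and 70.7 ± 16.9 CPM on the LFD and 102 ± 32.9 and 40.5 ± 10.1 CPM on the HFD. Tm7sf2 averaged 127 ± 23.2 and 100.1 ± 14.5 CPM on the LFD and 110.3 ± 25.03 and 56.4 ± 5.36 CPM on the HFD. Lbr averaged 6.67 ± 0.908 and 6.08 ± 0.608 CPM on the LFD and 7.32 ± 0.907 and 6.62 ± 0.902 CPM on the HFD. Cyp51 and Tm7sf2 were again lowest there, whereas Lbr had its lowest mean in Adn-Lpin1-/- LFD. Msmo1 averaged 42.6 ± 17.2 and 47.2 ± 10.4 CPM on the LFD and 73.9 ± 22.4 and 40.7 ± 10.98 CPM on the HFD. Nsdhl averaged 47.8 ± 14.5 and 54.3 ± 10.04 CPM on the LFD and 65.6 ± 24.9 and 27.5 ± 8.44 CPM on the HFD. Hsd17b7 averaged 37.3 ± 4.44 and 43.1 ± 8.68 CPM on the LFD and 46.7 ± 12.2 and 31.1 ± 4.05 CPM on the HFD. These enzymes of C4 demethylation had their highest means in WT HFD. Ebp averaged 236 ± 21.1 and 201 ± 28.2 CPM on the LFD and 239 ± 12.5 and 192 ± 22.6 CPM on the HFD. Sc5d averaged 335 ± 79.2 and 340.4 ± 47.6 CPM on the LFD and 331 ± 12.5 and 237 ± 25.9 CPM on the HFD. Dhcr7 averaged 73.3 ± 17.99 and 86.1 ± 15.6 CPM on the LFD and 82.9 ± 18.8 and 50.3 ± 11.5 CPM on the HFD. The mice of WT HFD lay close together for Ebp and Sc5d.

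Among the genes of control and transport, Srebf2 averaged 45.1 ± 7.24 and 49.05 ± 5.41 CPM on the LFD and 57.9 ± 9.33 and 53.1 ± 10.5 CPM on the HFD. Scap averaged 157 ± 24.7 and 139 ± 16.7 CPM on the LFD and 155 ± 15.3 and 124 ± 11.5 CPM on the HFD. Insig1 averaged 127 ± 34.6 and 145 ± 49.7 CPM on the LFD and 131 ± 15.7 and 123 ± 42.4 CPM on the HFD. Srebf2 had its lowest mean in WT LFD and Scap in Adn-Lpin1-/- HFD. Insig2 averaged 139 ± 36.4 and 233 ± 20.97 CPM on the LFD and 113 ± 25.5 and 172 ± 61.8 CPM on the HFD. Stard4 averaged 97.4 ± 15.1 and 70.4 ± 8.83 CPM on the LFD and 105 ± 14.4 and 60.5 ± 7.29 CPM on the HFD. Mylip averaged 6.84 ± 1.26 and 10.8 ± 3.81 CPM on the LFD and 8.87 ± 1.57 and 13.6 ± 1.17 CPM on the HFD. On each diet, Insig2 and Mylip had the higher mean and Stard4 the lower mean in Adn-Lpin1-/- mice.

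RefSeq promoter windows of GRCm38.p6, from 250 bases before to 50 bases after the gene start, were at hand for 22 of the 26 genes (not for Fdps, Fdft1, Sqle and Stard4), and a gene with several starts was counted once if any of its windows held a motif. They were searched on both strands for the core of the sterol regulatory element bound by SREBP (TCACNCCAC), its shorter form (CACNCCAC, which lies within the first), the CCAAT box bound by NF-Y and the GC box (GGGCGG) bound by Sp1, both of which are known to act beside SREBP. CCAAT occurred in 20 of the 22 genes (90.9%), against 41.1% of all 27025 genes with a window and 42.8% of the 9692 that were among the genes tested. GGGCGG also occurred in 20 of the 22, against 38.2% and 67.0%. CACNCCAC was found in Hmgcs1, Acat2 and Insig1 (3 of 22, against 7.12% of all genes and 7.80% of those tested), and TCACNCCAC in Hmgcs1 alone (against 1.44% of all genes). A match is a run of letters and not a proven site. The 150 bases before the start are shown for 2 sets of genes, the 3 whose window holds CACNCCAC and the 3 with a window whose level differed most between the genotypes on the HFD. Capitals mark TCACNCCAC, CACNCCAC or CCAAT on either strand (ATTGG is CCAAT and GTGGCGTG is CACNCCAC read on the other strand). The sequences read 5′ to 3′ on the strand of the gene. They lie at chr13:119690201-119690350, plus strand (Hmgcs1), chr17:12960726-12960875, minus strand (Acat2), chr5:28071262-28071411, plus strand (Insig1), chr13:8885456-8885605, plus strand (Idi1), chr5:4104698-4104847, minus strand (Cyp51) and chrX:72918371-72918520, plus strand (Nsdhl).
Hmgcs1: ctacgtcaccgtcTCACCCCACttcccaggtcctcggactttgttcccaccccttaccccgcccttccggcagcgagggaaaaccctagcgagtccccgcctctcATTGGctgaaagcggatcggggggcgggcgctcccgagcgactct
Acat2: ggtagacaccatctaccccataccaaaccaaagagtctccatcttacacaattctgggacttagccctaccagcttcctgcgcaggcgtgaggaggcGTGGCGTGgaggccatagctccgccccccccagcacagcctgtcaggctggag
Insig1: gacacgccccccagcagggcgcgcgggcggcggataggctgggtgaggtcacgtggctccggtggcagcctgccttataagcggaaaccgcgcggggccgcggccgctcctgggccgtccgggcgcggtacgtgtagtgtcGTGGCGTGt
Idi1: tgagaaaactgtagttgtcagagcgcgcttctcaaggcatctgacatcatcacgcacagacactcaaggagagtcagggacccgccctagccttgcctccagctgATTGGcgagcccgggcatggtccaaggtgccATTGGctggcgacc
Cyp51: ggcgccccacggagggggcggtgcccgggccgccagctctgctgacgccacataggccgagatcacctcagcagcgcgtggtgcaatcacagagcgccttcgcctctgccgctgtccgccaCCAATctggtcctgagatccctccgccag
Nsdhl: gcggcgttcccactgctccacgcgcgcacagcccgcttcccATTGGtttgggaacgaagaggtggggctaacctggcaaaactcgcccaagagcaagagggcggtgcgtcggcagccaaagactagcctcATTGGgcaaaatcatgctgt

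Of the comparisons between groups, that of the genotypes on the HFD had the most of these genes called. Relative to WT HFD, 17 of the 26 genes were called lower and 1 (Mylip) higher in Adn-Lpin1-/- HFD, 69.2% of the genes, where 18.6% of all genes tested were called in either direction and 8.78% lower and 9.87% higher. A gene is said to be called when edgeR's quasi-likelihood test gave a p of no more than 0.05 after Benjamini-Hochberg adjustment over all 13052 genes. The log2 fold change was negative for 24 of the 26, with a median of -0.56 beside 0.0023 over all genes. It was negative for all 20 enzymes, and 15 of the 20 were called. By part, 4 of the 8 mevalonate enzymes (median -0.58) and 11 of the 12 squalene and sterol enzymes (median -0.69) were called lower. The 2 groups did not overlap for 7 of the 26 genes in the lower and 1 in the higher direction, where 5.6% and 5.78% of all genes were so separated. Without mouse 5 of WT HFD, 16 of the 26 were called lower and none higher, with a median of -0.69, and without mouse 4 of Adn-Lpin1-/- HFD 17 were called lower and 2 higher, with a median of -0.51. Without mouse 4 of WT HFD, the fewest were called lower (14, with 2 higher), with a median of -0.48.

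In the mevalonate part, the genes that fell were Idi1, Pmvk, Fdps and Mvk. Idi1, the isopentenyl diphosphate isomerase, had 21.1, 27.6, 27.8, 33.2 and 7.43 CPM in the WT HFD mice and 7.19, 10.7, 4.61, 2.80 and 6.43 CPM in the Adn-Lpin1-/- HFD mice. WT mice 1 to 4 were far above every Adn-Lpin1-/- mouse, whereas WT mouse 5 was inside the range of the Adn-Lpin1-/- group. The log2 fold change of Idi1 was -1.88 (SE 0.37, edgeR adjusted p = 0.00230), so that it fell by 72.9%, and the value was -2.12 without that mouse. Pmvk, the phosphomevalonate kinase, had 27.2, 28.9, 26.8, 37.8 and 19.6 CPM in the WT HFD mice and 15.4, 19.3, 15.1, 9.65 and 13.2 CPM in the Adn-Lpin1-/- HFD mice. The groups did not overlap, with the lowest WT mouse only just above the highest Adn-Lpin1-/- mouse, and the log2 fold change was -0.95 (SE 0.19, edgeR adjusted p = 0.00237). Fdps had 159, 152, 143, 203 and 65.9 CPM in the WT HFD mice and 100.02, 89.2, 70.3, 46.4 and 69.5 CPM in the Adn-Lpin1-/- HFD mice. Its log2 fold change was -0.95 (SE 0.26, edgeR adjusted p = 0.0182), so that it fell by 48.1%, and WT mouse 5 was again the one that overlapped the other group. Mvk, the mevalonate kinase, had 19.2, 19.7, 19.3, 23.7 and 10.99 CPM in the WT HFD mice and 9.57, 13.8, 9.56, 8.79 and 13.01 CPM in the Adn-Lpin1-/- HFD mice, a log2 fold change of -0.76 (SE 0.19, edgeR adjusted p = 0.00958), with only WT mouse 5 in the range of Adn-Lpin1-/-.

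The other 4 genes of the mevalonate part were not called on the HFD. Hmgcs1 had 135, 136, 145, 198 and 51.4 CPM in the WT HFD mice and 155, 122, 149.9, 72.7 and 67.6 CPM in the Adn-Lpin1-/- HFD mice, and both groups spanned low and high mice. Its log2 fold change was -0.23 with a 95% interval of -0.97 to 0.52, which includes both no change and a fall as large as that of Pmvk. For Mvd, the mevalonate diphosphate decarboxylase, it was -0.40 (-1.16 to 0.35), and its mice spread from 3.85 to 12.7 CPM in WT HFD. The intervals were narrower for Acat2, the cytosolic acetoacetyl-CoA thiolase of the first step (-0.17, -0.42 to 0.09), and for Ggps1 on the branch to geranylgeranyl groups (-0.11, -0.35 to 0.12).

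In the squalene and sterol part, every enzyme but Lbr fell. Sqle, the squalene epoxidase and a rate-limiting step, had 32.9, 41.1, 36.6, 53.2 and 10.9 CPM in the WT HFD mice and 14.02, 19.1, 6.52, 2.80 and 14.2 CPM in the Adn-Lpin1-/- HFD mice. Its log2 fold change was -1.62 (SE 0.45, edgeR adjusted p = 0.0168), so that it fell by 67.5%, and only WT mouse 5 reached into the other group. Cyp51, the lanosterol 14-demethylase, had 98.98, 104, 118, 139 and 50.2 CPM in the WT HFD mice and 40.1, 50.2, 40.04, 24.3 and 47.8 CPM in the Adn-Lpin1-/- HFD mice. The groups touched without overlap, with WT mouse 5 above Adn-Lpin1-/- mouse 2 by less than 0.1 CPM, and the log2 fold change was -1.33 (SE 0.24, edgeR adjusted p = 0.00106), or -1.52 without WT mouse 5. Nsdhl, a dehydrogenase that removes the carboxyl group at C4, had 69.03, 64.6, 71.02, 96.4 and 26.9 CPM in the WT HFD mice and 29.2, 38.1, 27.1, 14.5 and 28.6 CPM in the Adn-Lpin1-/- HFD mice. WT mouse 5 was below 4 of the 5 Adn-Lpin1-/- mice, and with all mice the log2 fold change was -1.25 (SE 0.28, edgeR adjusted p = 0.00477). The promoter windows of Cyp51 and Nsdhl printed above hold CCAAT but not CACNCCAC.

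The reductases Tm7sf2 and Dhcr7 and the desaturase Sc5d separated the groups with no overlap. Tm7sf2 had 108, 115, 110.1, 145 and 74.2 CPM in the WT HFD mice and 53.7, 65.5, 55.98, 51.6 and 55.2 CPM in the Adn-Lpin1-/- HFD mice, a log2 fold change of -0.97 (SE 0.15, edgeR adjusted p = 0.000250). Dhcr7, which catalyses the last step to cholesterol in one of the branches, had 80.5, 83.4, 75.7, 113 and 61.7 CPM in the WT HFD mice and 59.1, 61.3, 52.9, 33.2 and 44.8 CPM in the Adn-Lpin1-/- HFD mice, a log2 fold change of -0.72 (SE 0.19, edgeR adjusted p = 0.0124). The lowest WT mouse was at 61.7 CPM and the highest Adn-Lpin1-/- mouse at 61.3 CPM. Sc5d had 339, 339, 315, 341 and 319 CPM in the WT HFD mice and 253, 231, 272, 204 and 226 CPM in the Adn-Lpin1-/- HFD mice, a log2 fold change of -0.48 (SE 0.13, edgeR adjusted p = 0.0137). Its WT mice, mouse 5 included, lay close together, and all were above the highest Adn-Lpin1-/- mouse. Fdft1, the squalene synthase, was separated as well, with 89.1, 85.4, 93.1, 112 and 71.05 CPM in the WT HFD mice and 62.1, 65.4, 52.5, 54.1 and 49.1 CPM in the Adn-Lpin1-/- HFD mice and a log2 fold change of -0.67 (SE 0.13, edgeR adjusted p = 0.00180).

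The remaining sterol enzymes fell by less or with more overlap. Msmo1, the C4 methyl oxidase, had 70.01, 87.6, 77.1, 96.6 and 38.2 CPM in the WT HFD mice and 51.6, 52.2, 35.1, 26.9 and 37.8 CPM in the Adn-Lpin1-/- HFD mice and a log2 fold change of -0.86 (SE 0.26, edgeR adjusted p = 0.0260). Hsd17b7, the 3-keto reductase of the C4 demethylation complex, had 44.97, 50.9, 48.1, 61.6 and 27.96 CPM in the WT HFD mice and 32.3, 34.7, 34.1, 24.8 and 29.6 CPM in the Adn-Lpin1-/- HFD mice, with a log2 fold change of -0.59 (SE 0.16, edgeR adjusted p = 0.0185). In both genes WT mouse 5 lay among the Adn-Lpin1-/- mice and the other WT mice above all of them. Lss, the lanosterol synthase, had 42.7, 40.1, 40.9, 52.1 and 29.7 CPM in the WT HFD mice and 33.4, 31.5, 27.7, 25.3 and 24.6 CPM in the Adn-Lpin1-/- HFD mice, and its log2 fold change was -0.53 (SE 0.14, edgeR adjusted p = 0.0151), with 2 Adn-Lpin1-/- mice above WT mouse 5. Ebp had 249, 243, 217, 245 and 238 CPM in the WT HFD mice and 160.4, 179, 194, 219 and 205 CPM in the Adn-Lpin1-/- HFD mice, the smallest change of the enzymes called, at -0.32 (SE 0.09, edgeR adjusted p = 0.0258). In Ebp, Adn-Lpin1-/- mouse 4, the lowest of its group for 14 of the 26 genes, was the highest and just above WT mouse 3. Leaving out 1 mouse at a time ended the call of Ebp without WT mouse 2 or Adn-Lpin1-/- mouse 1 or 2 (adjusted p up to 0.0715), of Msmo1 without WT mouse 2 or 4 or Adn-Lpin1-/- mouse 3 (up to 0.0614), and of Hsd17b7 without WT mouse 4 (0.0504). Lbr had a log2 fold change of -0.15 (-0.39 to 0.10), not called.

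Among the genes of SREBP-2 control, Srebf2, which encodes SREBP-2 itself, was at 57.9 ± 9.33 CPM (SD, n = 5) in WT HFD and 53.1 ± 10.5 CPM (n = 5) in Adn-Lpin1-/- HFD, with a log2 fold change of -0.13 (-0.41 to 0.16), not called. Its interval leaves out a fall as large as that of 15 of the 17 genes called lower. Scap had 147, 133, 165, 172 and 159.5 CPM in the WT HFD mice and 119, 142, 111, 120.05 and 126 CPM in the Adn-Lpin1-/- HFD mice. Adn-Lpin1-/- mouse 2 was above the lowest WT mouse and the other 4 below all WT mice. Scap was called lower at -0.33 (SE 0.11, edgeR adjusted p = 0.0350), and not called without WT mouse 3, 4 or 5 or Adn-Lpin1-/- mouse 1 or 3 (edgeR adjusted p from 0.0564 to 0.0809). Insig1, a target of SREBP-2 as well as its inhibitor, was at 131 ± 15.7 CPM and 123 ± 42.4 CPM (n = 5 each), a log2 fold change of -0.09 (-0.59 to 0.41). Insig2, the isoform whose liver expression rises on fasting, had 113, 117, 107, 150.3 and 79.02 CPM in the WT HFD mice and 196, 151, 264, 145 and 101 CPM in the Adn-Lpin1-/- HFD mice. Its log2 fold change of 0.60 (SE 0.21, edgeR adjusted p = 0.0515) just missed the threshold, with mice 4 and 5 of Adn-Lpin1-/- inside the WT range, mouse 2 just above it and mouse 3 above all others. Insig2 was called higher without WT mouse 4 or Adn-Lpin1-/- mouse 4 or 5 (edgeR adjusted p from 0.0146 to 0.0480). Without WT mouse 5 it was 0.48 with an adjusted p of 0.139.

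The pair of Stard4 and Mylip moved in opposite directions. Stard4, a cytosolic carrier that delivers sterol between membranes, had 88.1, 120.3, 115, 109 and 91.02 CPM in the WT HFD mice and 61.03, 56.3, 66.5, 50.6 and 68.3 CPM in the Adn-Lpin1-/- HFD mice. The groups did not overlap, and its log2 fold change was -0.79 (SE 0.12, edgeR adjusted p = 0.000198), the smallest adjusted p of the 26. Mylip had 8.43, 8.66, 10.5, 10.2 and 6.57 CPM in the WT HFD mice and 14.4, 13.5, 15.1, 12.5 and 12.4 CPM in the Adn-Lpin1-/- HFD mice. The lowest Adn-Lpin1-/- mouse exceeded the highest WT mouse (exact two-sided permutation test on log2 CPM, p = 0.00794, the smallest that 5 mice against 5 can give), and the log2 fold change was 0.61 (SE 0.18, edgeR adjusted p = 0.0237). Without WT mouse 5, the lowest of its group, it was 0.51 with an adjusted p of 0.0693 and was no longer called. Nor was it called without WT mouse 1 or Adn-Lpin1-/- mouse 3, at adjusted p of 0.0519 and 0.0506.

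**Figure D1:**
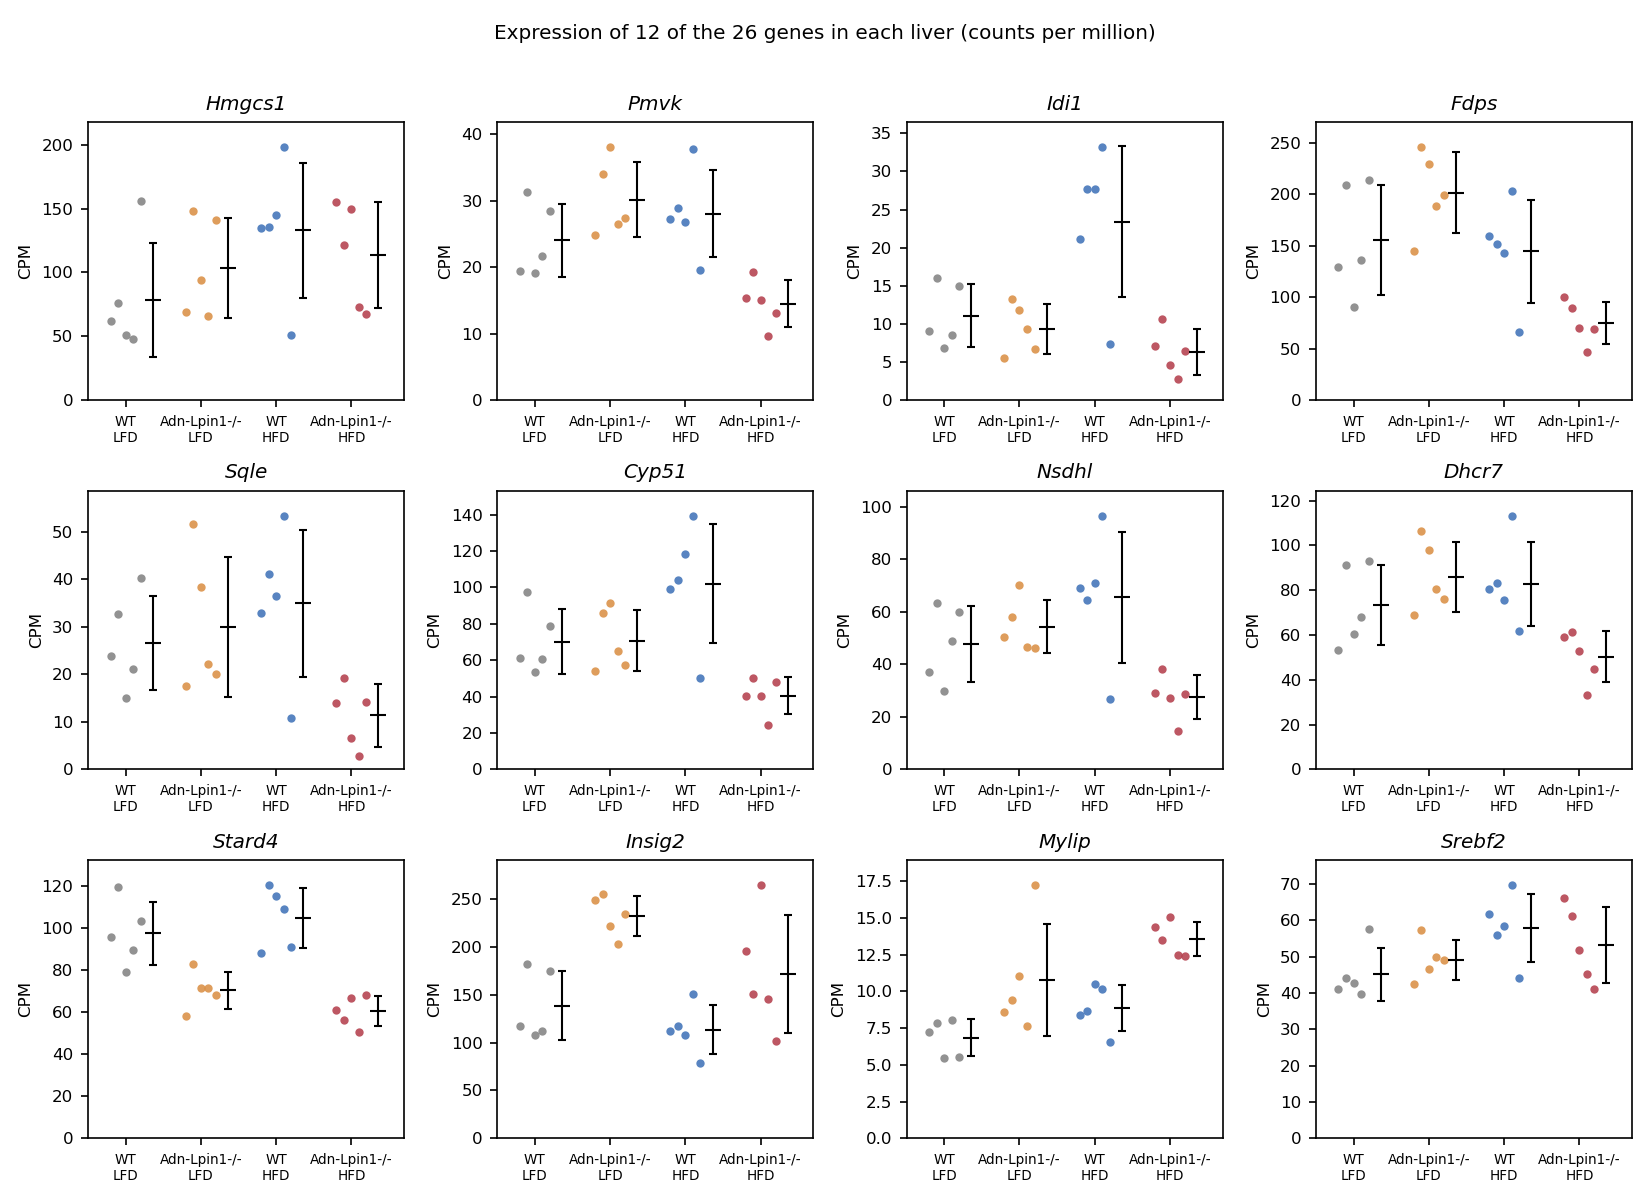
Level of 12 of the 26 genes in each of the 20 single-mouse liver libraries, in CPM on a linear axis that starts at 0. Each point is a mouse, in the order of mouse 1 to 5 within its group, and the bar to the right of each group is the mean ± SD (n = 5). In WT HFD, mouse 5 lies below the other 4 mice for Idi1, Fdps, Sqle, Cyp51 and Nsdhl, and the Adn-Lpin1-/- HFD mice are low for these genes, whereas Mylip is higher in each of them than in any WT HFD mouse.

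Markers of liver cell types also differed between the genotypes on the HFD. Beside the counts that follow, 8.78% of all genes were called lower and 9.87% higher on the HFD, and 14.4% in either direction on the LFD. Of 7 hepatocyte markers, 5 were called lower in Adn-Lpin1-/- HFD, namely Apob (-0.58), Apoa1 (-0.77), Cps1 (-0.64), Alb (-0.34) and Serpina1b (-0.28 log2), with a median of -0.34 for the list. The summed level of the 7 markers, of which Alb was the most abundant, was 100085 to 127584 CPM in WT HFD and 83709 to 109479 CPM in Adn-Lpin1-/- HFD. Of 6 Kupffer cell and macrophage markers, 5 were called higher (Timd4 at 0.99, Csf1r at 0.97, Cd68 at 0.82, Vsig4 at 0.75 and Clec4f at 0.63 log2). Their summed level was 98.5 to 121 CPM in WT HFD and 128 to 275 CPM in Adn-Lpin1-/- HFD, with Clec4f the most abundant. Of 5 endothelial markers, Stab2, Lyve1 and Pecam1 were called higher (median of the list 0.49), and the sum of the list was 78.8 to 115 CPM in WT HFD and 119 to 138 CPM in Adn-Lpin1-/- HFD. Of 6 stellate cell markers 2 were called higher (Col1a1 at 2.27 and Col3a1 at 1.60), and of 5 cholangiocyte markers none was called. On the LFD, where few of the 26 genes were called, 2 of the 7 hepatocyte, 0 of the 6 macrophage, 3 of the 6 stellate cell, 2 of the 5 endothelial and 0 of the 5 cholangiocyte markers were called. Adipocyte markers specific to fat were near 0. Plin1, Lep and Retn did not exceed 6 counts in any of the 20 libraries, and Adipoq was at most 0.746 CPM in the HFD groups, with 168 counts in a single WT LFD mouse. Cfd, which is not specific to fat, was higher in Adn-Lpin1-/- on both diets (3.76 on the LFD and 3.81 on the HFD). Car3, the most abundant of the adipocyte list and also made by hepatocytes, was not called between the genotypes on either diet. The part of these shifts in the levels of the 26 genes was not tested.

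On the LFD, the same comparison called 4 of the 26 genes, 15.4%, beside 14.4% of all genes tested, so the share was near the background. Acat2, Insig2 and Mylip were called higher in Adn-Lpin1-/- LFD (all genes, 6.27%) and Stard4 lower (all genes, 8.11%). The median log2 fold change was 0.14 beside 0.0065 over all genes, and 18 of the 26 values were positive. With 1 mouse left out the median ran from 0.03 (without WT LFD mouse 3) to 0.25 (without WT LFD mouse 5), and it was 0.07 without Adn-Lpin1-/- LFD mouse 2, 3 or 5 and 0.09 without WT LFD mouse 4. Insig2 had 118, 182, 108, 112 and 175 CPM in the WT LFD mice and 249, 255, 222, 203 and 234 CPM in the Adn-Lpin1-/- LFD mice, and the groups did not overlap. Its log2 fold change was 0.75 (SE 0.21, edgeR adjusted p = 0.0225), an increase of 67.7%. Acat2 had 40.7, 49.2, 43.8, 42.6 and 54.5 CPM in the WT LFD mice and 61.2, 69.3, 55.8, 54.9 and 60.5 CPM in the Adn-Lpin1-/- LFD mice, also without overlap, and a log2 fold change of 0.39 (SE 0.12, edgeR adjusted p = 0.0378). Groups with no overlap in the higher direction made up 3.89% of all genes, against 2 of these 26.

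Mylip had 7.26, 7.85, 5.45, 8.08 and 5.55 CPM in the WT LFD mice and 8.60, 9.45, 11.03, 7.61 and 17.2 CPM in the Adn-Lpin1-/- LFD mice. Adn-Lpin1-/- mouse 5 was far above the others and mouse 4 inside the WT range, and the log2 fold change was 0.66 (SE 0.18, edgeR adjusted p = 0.0215). Stard4 had 95.8, 119, 79.1, 89.5 and 103 CPM in the WT LFD mice and 58.2, 82.9, 71.4, 71.3 and 67.99 CPM in the Adn-Lpin1-/- LFD mice, with 1 Adn-Lpin1-/- mouse above the lowest WT mouse, and a log2 fold change of -0.47 (SE 0.12, edgeR adjusted p = 0.0108). Stard4 and Mylip were therefore the 2 genes called on both diets, each in the same direction on both. Tm7sf2 (-0.34, adjusted p = 0.127) and Ebp (-0.23, adjusted p = 0.105 in edgeR) had an unadjusted p below 0.05 and were not called. For the other 20 genes the log2 fold change lay between -0.25 and 0.40, and the widest interval, that of Sqle, ran from -0.74 to 1.08. Without WT LFD mouse 3, 1 of the 26 genes (Stard4) was called, and without WT LFD mouse 1 or 4 or Adn-Lpin1-/- LFD mouse 2 or 5, 2 were. Acat2 lost its call without WT mouse 1, 2, 3 or 4 or Adn-Lpin1-/- mouse 1, 2 or 5 (adjusted p up to 0.106 in edgeR), Insig2 without WT mouse 1, 3 or 4 or Adn-Lpin1-/- mouse 2 (up to 0.0698) and Mylip without WT mouse 3 or Adn-Lpin1-/- mouse 5 (up to 0.0723). The log2 fold change of Mylip was 0.42 without that Adn-Lpin1-/- mouse and 0.58 without that WT mouse.

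Whether the genotype effect itself depended on the diet was tested as an interaction. No gene of the 26, and none of the 13052 tested (0%), was called in edgeR. At an unadjusted p below 0.05, 938 of all genes (7.19%) and 15 of the 26 (57.7%) passed, and all 15 were negative, which means a log2 fold change lower on the HFD than on the LFD. The value was negative for all 26 genes, where 48.5% of all genes were negative, and the median was -0.57 beside 0.0058. Without WT HFD mouse 5, 16 of the 26 passed with a median of -0.70, and without Adn-Lpin1-/- HFD mouse 4, 14 with a median of -0.51. No gene of the 26 was called without either mouse. The smallest adjusted p was that of Pmvk (0.292), with a value of -1.27 (95% interval -1.83 to -0.72), followed by Cyp51 at -1.34 (-2.04 to -0.65, adjusted p = 0.313). Of the mevalonate part, the values were -1.63 for Idi1 (-2.71 to -0.55, adjusted p = 0.492), -1.32 for Fdps (adjusted p = 0.384), -0.58 for Mvk (0.683) and -0.55 for Acat2 (0.461). Of the sterol part, the value was -1.79 for Sqle, with a wide interval (-3.08 to -0.50, edgeR adjusted p = 0.563). It was -1.44 for Nsdhl (adjusted p = 0.378 in edgeR), -1.01 for Msmo1 (0.582), -0.95 for Dhcr7 (0.379) and -0.80 for Hsd17b7 (0.423). Smaller values, each with its edgeR adjusted p, were those of Tm7sf2 (-0.63, 0.535), Lss (-0.56, 0.581), Sc5d (-0.50, 0.581) and Fdft1 (-0.49, 0.582). Stard4 (-0.32, interval -0.66 to 0.02) and Mylip (-0.04, interval -0.58 to 0.49) had intervals that include no difference between the diets. By DESeq2's Wald test, 30 genes were called and Pmvk and Cyp51 were among them, and by voom with quality weights none was called. With voom and the 4 pools as sixth libraries, 189 genes and 14 of the 26 were called, but a pool is not a further mouse.

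**Figure D2:**
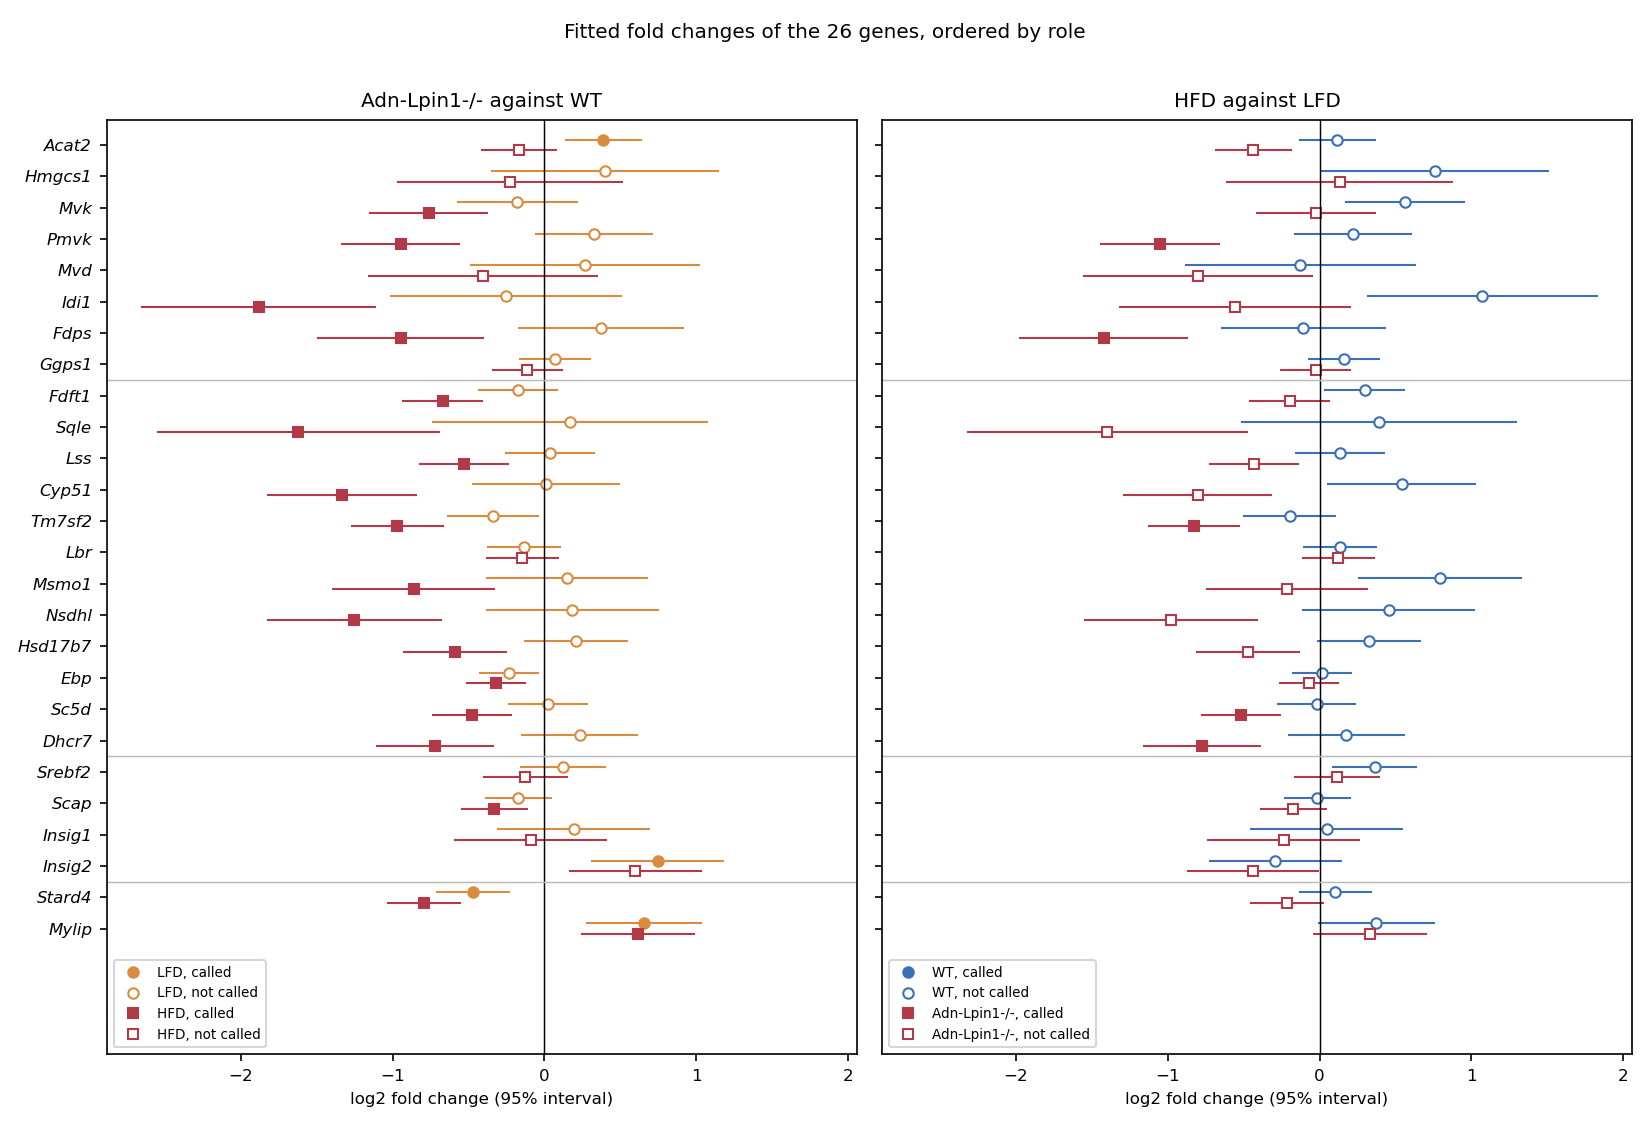
Log2 fold change of each of the 26 genes with its 95% interval, in the order of the mevalonate enzymes, the squalene and sterol enzymes, the genes of SREBP-2 control, and Stard4 and Mylip (groups divided by grey lines). The left panel sets Adn-Lpin1-/- against WT on each diet, and the right panel HFD against LFD in each genotype, with filled symbols for genes called. On the HFD 17 genes lie to the left of 0 with filled symbols, and no WT symbol in the right panel is filled.

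The diet comparisons reuse the same mice, so their values are given beside those above and are not separate evidence. In WT mice, 0 of the 26 genes were called between the HFD and the LFD in edgeR, where 1.1% of all genes were, and 7 had an unadjusted p below 0.05, where 15.8% of all genes did. These 7 all had higher means on the HFD, with log2 fold changes of 1.07 for Idi1, 0.79 for Msmo1, 0.76 for Hmgcs1, 0.56 for Mvk, 0.54 for Cyp51, 0.36 for Srebf2 and 0.30 for Fdft1, and adjusted p from 0.141 (Msmo1) to 0.312 (Hmgcs1). Mouse 5 of WT HFD counts here as well. For Idi1 the WT LFD mice had 9.14, 15.99, 6.85, 8.60 and 14.96 CPM, so that the other 4 WT HFD mice were above all of them and mouse 5 was above only the lowest. Without that mouse, Idi1 (1.30, adjusted p = 0.0484) and Mvk (0.70, adjusted p = 0.0430) were called higher on the HFD in edgeR.

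In Adn-Lpin1-/- mice, 5 of the 26 genes (19.2%) were called lower on the HFD than on the LFD and none higher, where 2.46% of all genes were called and 1.26% called lower. Fdps had 145, 245, 229, 188 and 199 CPM in the Adn-Lpin1-/- LFD mice, all above the HFD mice given before, and its log2 fold change was -1.42 (SE 0.27, edgeR adjusted p = 0.00665), so that it fell by 62.7%. Pmvk had 24.9, 34.02, 38.04, 26.5 and 27.4 CPM on the LFD, and its log2 fold change was -1.05 (SE 0.19, edgeR adjusted p = 0.00447). In Pmvk too every LFD mouse was above every HFD mouse. Tm7sf2, with 102, 94.2, 118, 106 and 79.3 CPM on the LFD, fell by 43.7%, a log2 fold change of -0.83 (SE 0.15, edgeR adjusted p = 0.00413). Dhcr7 (69.1, 107, 97.9, 80.6 and 76.2 CPM on the LFD) had a log2 fold change of -0.78 (SE 0.19, edgeR adjusted p = 0.0315), and Sc5d (300.5, 402, 339, 289 and 372 CPM on the LFD) of -0.52 (SE 0.13, edgeR adjusted p = 0.0327). Neither overlapped its HFD group. In all, 9 of the 26 genes were lower without overlap, where 2.04% of all genes were.

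A further 8 genes had an unadjusted p below 0.05 between the diets in Adn-Lpin1-/- mice and were not called, which makes 13 of the 26 below it, where 16.1% of all genes were. They were Acat2 (-0.44, adjusted p = 0.0609 in edgeR), Nsdhl (-0.98, 0.0641), Cyp51 (-0.80, 0.0791), Sqle (-1.40, 0.106), Lss (-0.43, 0.120), Hsd17b7 (-0.47, 0.147), Mvd (-0.80, 0.280) and Insig2 (-0.44, 0.309). Set side by side, Idi1, Mvk and Msmo1 had values of 1.07, 0.56 and 0.79 for the diet in WT mice and -0.56, -0.02 and -0.21 in Adn-Lpin1-/- mice. Fdps, Pmvk and Tm7sf2 had -0.11, 0.22 and -0.20 in WT mice and -1.42, -1.05 and -0.83 in Adn-Lpin1-/- mice. Dhcr7 lost its call without LFD mouse 2, 3 or 4 or HFD mouse 3, 4 or 5, and Sc5d without LFD mouse 2, 3 or 5 or HFD mouse 1, 2, 4 or 5. The count called in Adn-Lpin1-/- mice was 3 without Adn-Lpin1-/- HFD mouse 4 or 5 or Adn-Lpin1-/- LFD mouse 2 or 3, and 8 without WT HFD mouse 5, which is in neither of the groups compared.

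Averaged over the 8 mevalonate enzymes, the mean log2 level of the 5 mice relative to the mean of all 20 was -0.05 ± 0.40 (SD, n = 5) in WT and 0.16 ± 0.26 in Adn-Lpin1-/- mice on the LFD, and 0.28 ± 0.47 in WT and -0.39 ± 0.34 in Adn-Lpin1-/- mice on the HFD. Over the 12 squalene and sterol enzymes it was 0.07 ± 0.23, 0.09 ± 0.20, 0.31 ± 0.36 and -0.47 ± 0.26 in the same order. All 5 Adn-Lpin1-/- HFD mice were below 0 in both means. WT HFD mouse 5 lay within their range in both, and the other 4 WT HFD mice lay between 0.35 and 0.77. The mice of each LFD group fell on both sides of 0.

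**Figure D3:**
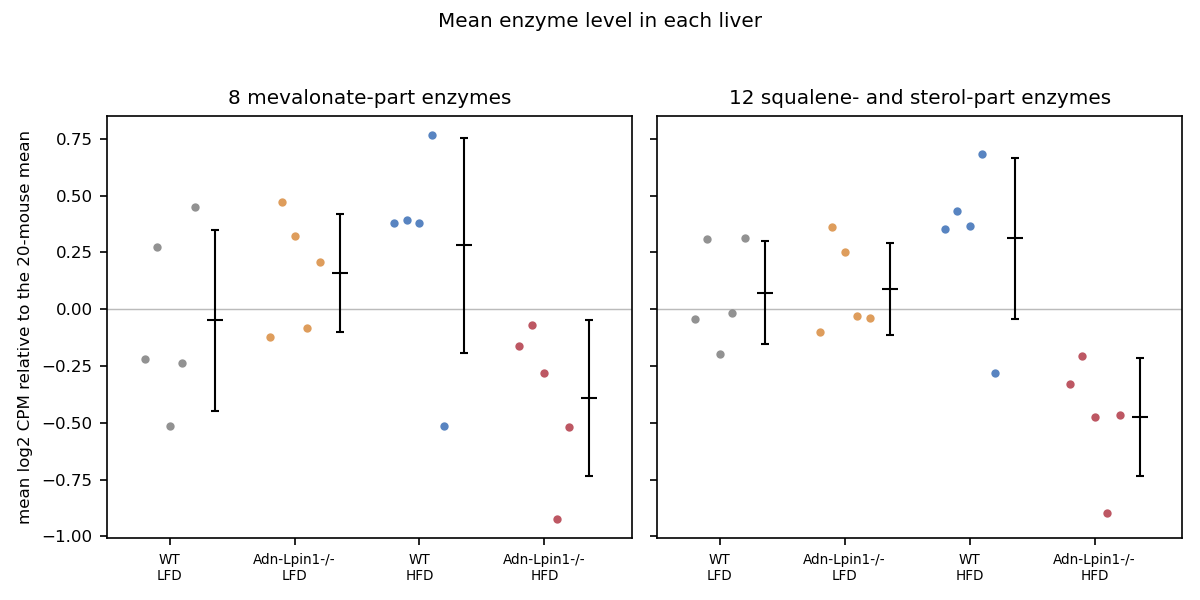
Mean log2 CPM of the 8 enzymes of the mevalonate part (left) and the 12 enzymes of the squalene and sterol part (right) in each of the 20 mice, relative to the mean of each gene over the 20 mice. Each point is a mouse and the bar beside each group is the mean ± SD (n = 5). The Adn-Lpin1-/- HFD mice all lie below 0 in both panels, as does WT HFD mouse 5.

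Within the groups, most of the enzymes varied together from mouse to mouse. Over the 190 pairs of the 20 enzymes, the median Pearson's r of the deviations from the group means was 0.65 (20 mice, log2 CPM). Of these pairs, 120 were above 0.5. Over all pairs among every 13th gene tested (1004 genes), the median was -0.0019. These values are a description, since the genes of a mouse share its library, depth and scaling. Idi1 (0.95), Nsdhl (0.94), Sqle (0.91) and Pmvk (0.90) had the highest r with Cyp51. Ggps1, Lbr and Ebp stood apart from the rest. Their mean r with the other enzymes was -0.12 for Ggps1, 0.04 for Lbr and -0.23 for Ebp. Ggps1 serves protein prenylation and Lbr the nuclear envelope besides sterol synthesis. Among the other members, Srebf2 had a mean r of 0.54 with the enzymes, Insig2 0.47, Stard4 0.44, Mylip 0.26, Scap 0.25 and Insig1 0.25.

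**Figure D4:**
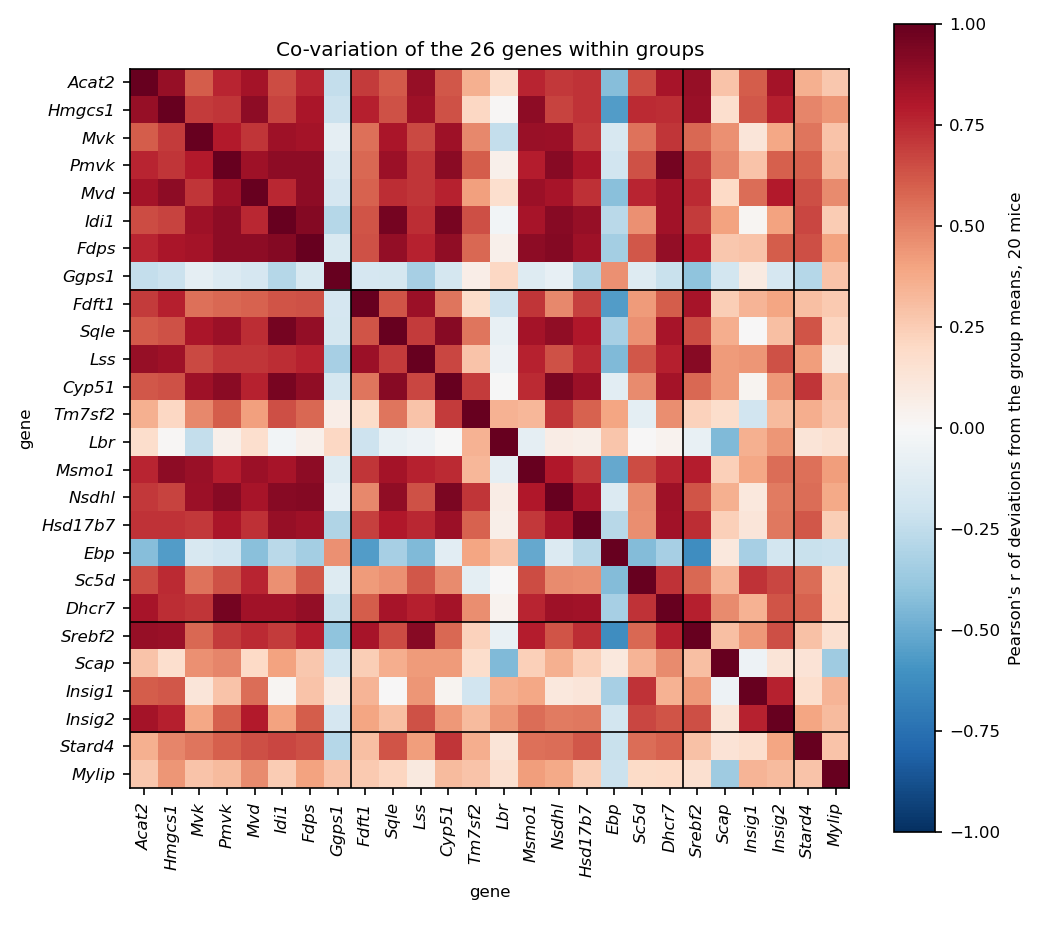
Pearson's r between each pair of the 26 genes, over 20 mice, of the deviations of log2 CPM from the group means (red positive, blue negative), with black lines between the 4 role groups. Most enzymes share red blocks, whereas the rows of Ggps1, Lbr and Ebp are mostly pale or blue against the other enzymes, with Ebp and Ggps1 at 0.46 to each other.

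Other genes of sterol metabolism were read from lists chosen by function. Of 13 genes that process or degrade the SREBPs and their partners, 4 were called lower in Adn-Lpin1-/- HFD and none higher, where 8.78% of all genes were called lower, with a median log2 fold change of -0.12. Among them were the ubiquitin ligases Marchf6 (-0.35, adjusted p = 0.0151 in edgeR), Rnf139 (-0.21) and Rnf145 (-0.34). Marchf6 (-0.44) and Rnf139 (-0.24) were called lower on the LFD as well. Srebf1, the gene of the sister factor SREBP-1, was at 439 ± 42.6 CPM (SD, n = 5) in WT HFD and 439 ± 137 CPM (n = 5) in Adn-Lpin1-/- HFD, and was not called.

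Of 15 genes of sterol storage and export, 3 were called on the HFD, a share near the 18.6% of all genes. Abca1, the pump that loads cholesterol onto apolipoprotein A-I, fell from 195 ± 17.1 to 129 ± 9.88 CPM (SD, n = 5 each), a log2 fold change of -0.60 (SE 0.08, edgeR adjusted p = 7.40e-05). Soat1, which esterifies cholesterol and in liver is known mainly from macrophages (0.86, adjusted p = 0.0102 in edgeR), and Abcg1, another sterol exporter (0.63, adjusted p = 0.0447), were called higher, beside the macrophage markers above. On the LFD, Abca1 (-0.44) and Lcat, the plasma cholesterol acyltransferase (-0.30), were called lower. Abca1 and Mylip are both known targets of LXR, and here the first was lower and the second higher in Adn-Lpin1-/- mice on both diets. These genes were not drawn from a fixed list of LXR targets, and LXR targets as a group were not tested. The medians of the list were 0.05 on the LFD and -0.0022 on the HFD.

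Of 15 genes of the isoprenoid branch, which uses farnesyl and geranylgeranyl diphosphate for ubiquinone, dolichol and prenylated proteins, 2 were called on each diet, where 14.4% (LFD) and 18.6% (HFD) of all genes were, so neither count stood above the background. Pggt1b, a subunit of geranylgeranyl transferase I, was lower on the LFD (-0.57) and the HFD (-0.60), Fntb, the farnesyltransferase subunit, higher on the LFD (0.70), and Rabggtb lower on the HFD (-0.28). Of 8 genes that supply electrons to the sterol oxidases or carry sterols, 1 was called on the HFD, Cyb5r3, the cytochrome b5 reductase (-0.30), which was also lower by diet in Adn-Lpin1-/- mice (-0.64). The medians of these lists on the HFD were -0.02 and -0.13, against -0.56 for the 26 genes. By diet in Adn-Lpin1-/- mice, Pdss1 of ubiquinone synthesis (-0.68) and Npc2, the lysosomal sterol carrier of the storage list (-0.30), were called lower. By diet in WT mice no gene of the lists of processing, storage, isoprenoids or electron supply was called in edgeR (lowest adjusted p 0.0994).

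The closest relatives are 13 genes of acetyl-CoA supply and fatty acid synthesis that SREBPs also activate. On the LFD none of the 13 was called between the genotypes, where 14.4% of all genes were. The median was 0.38 and all 13 values were positive. An unadjusted p below 0.05 was found for 2 of the 13, where 28.9% of all genes had one, so neither count stood above the background. On the HFD, 3 were called lower (all genes, 8.78%), Fads1, a fatty acid desaturase (-0.70), Rdh11, a retinol dehydrogenase (-0.97), and Slc25a1, the citrate carrier (-0.23), and the median was -0.15. By diet, the list had a median of -0.22 in WT mice, with 0 called (all genes, 1.1%), whereas the median of the 26 genes was 0.17. In Adn-Lpin1-/- mice 6 of the 13 were called lower on the HFD (all genes, 1.26%; median of the list -0.85), among them Rdh11 (-1.36), Acss2, the acetyl-CoA synthetase (-1.40), Fads1 (-0.86) and Elovl6, an elongase (-1.20). The difference between the lists was not tested.

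**Figure D5:**
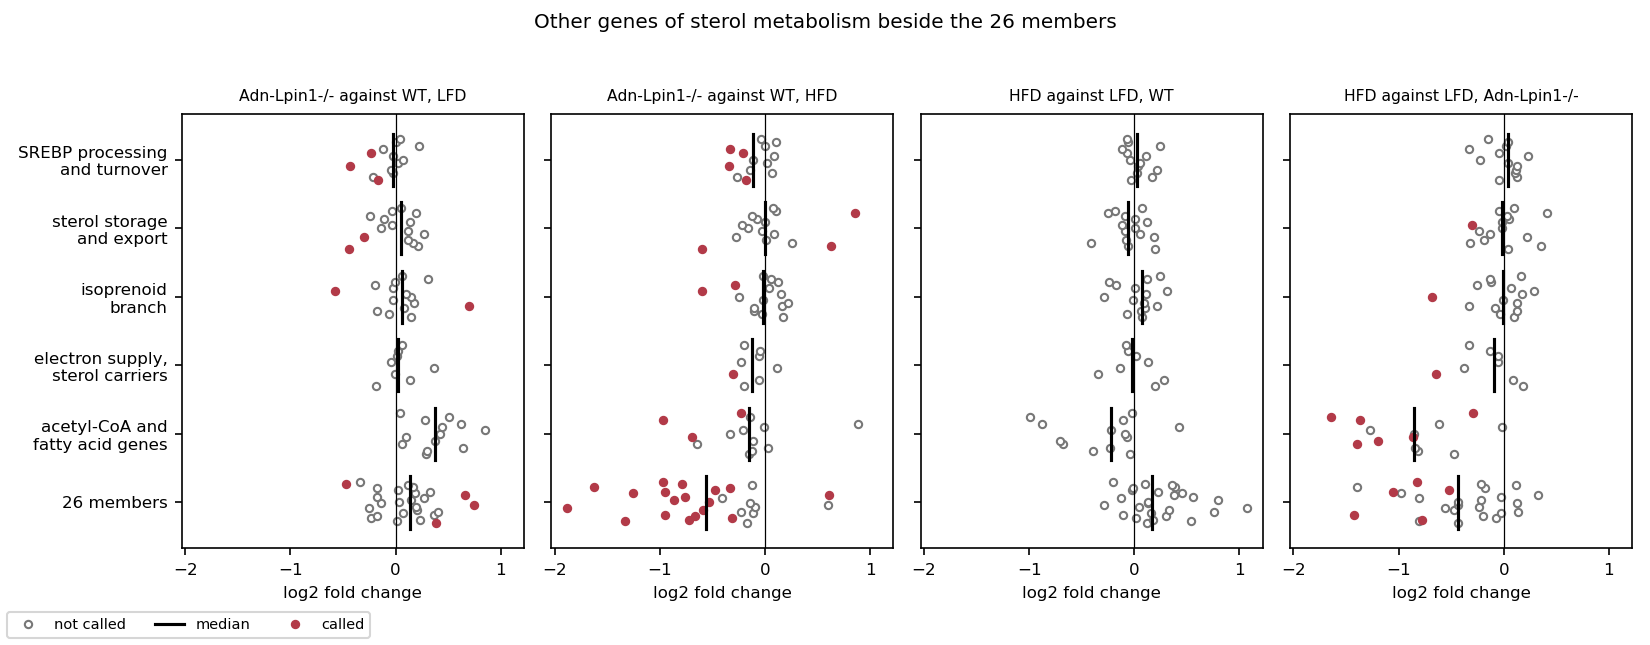
Log2 fold change of each tested gene in 5 lists of related function and in the 26 genes, for the comparisons of genotype on the LFD and the HFD and of diet in WT and in Adn-Lpin1-/- mice. Filled points are genes called, open points are genes not called, and the black bar is the median of the list. On the HFD the 26 genes have a median of -0.56, and the median of the acetyl-CoA and fatty acid genes is -0.15.

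Cholesterol synthesis in liver follows the time of day and of feeding, so 11 clock genes were read beside it. On the HFD, 3 were called lower in Adn-Lpin1-/- mice, Clock (-0.55), Dbp (-0.35) and Nr1d2 (-0.36), and on the LFD the same 3 (-0.55, -0.37 and -0.43) and Tef (-0.29). Of all genes, 8.78% were called lower on the HFD and 8.11% on the LFD. The medians of the list were -0.20 on the LFD and 0.05 on the HFD. No clock gene was called by diet in either genotype. Their part in the levels of the 26 genes was not tested.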

How the data were processed

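Liver poly-A RNA of 20 single mice and 4 group pools was sequenced with random-hexamer priming. Per the labels and the submitters' processing notes, bcl2fastq, STAR 2.5.1a, GRCm38 and featureCounts 1.4.6-p5 (Subread) were used, and the strand setting is not given in the sources used here. The authors deposited counts per gene, with CPM and RPKM columns of the same libraries. All tests and values rest on the deposited counts. The deposited CPM equals the count over the library total, and the CPM and RPKM printed here were recomputed after TMM scaling. The 26 genes and the other lists were chosen with earlier results of these data known.

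Ribosomal RNA genes were left out, and the 13052 genes that exceeded 1 CPM in 4 or more of the single-mouse libraries were fitted in edgeR 4.0.16 (R 4.3.3) with TMM and 4 group means by the quasi-likelihood test, with Benjamini-Hochberg adjustment over all genes. The log2 fold changes of the fit used a prior count of 0.125. Log2 CPM had no prior count in the permutation tests and enzyme means, and a different one in the correlations between genes. Standard errors and 95% intervals came from the same fit. Overlap of groups and exact two-sided permutation tests used 5 mice against 5. Replicates are single mice by the labels. No pair of mice of the same group agreed within counting noise (lowest chi-square per degree of freedom 28.2). Separate mice need not agree within it, so this value is a description only. The pools were left out of the tests. They lay inside the range of the 5 mice of their group for 24 to 25 of the 26 genes. Of all genes tested, 78.3% (WT LFD) to 86.9% (Adn-Lpin1-/- LFD) lay inside. All 26 genes are named with their level in each group. Genes called were described in full, those with an unadjusted p below 0.05 were given with their fold change and adjusted p, and of each pathway list at most 4 called genes per comparison were named by smallest adjusted p. Marker lists of cell types were given by their counts and called genes. The values of a particular listed gene, which enters counts and medians, are not reported here. The fit was tested on simulated data. Alternatives were DESeq2 1.42.0 (size factors, Wald test), limma 3.58.1 voom with quality weights, a fit that adds each pool as a sixth library, other filters, the 2 groups alone, a replicate block and leaving out each mouse. Removal of a GC trend, and voom with the pools, were chosen after seeing the data.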

Additional observations from a re-analysis of the deposited data

Results flagged for a closer look

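In groups of 5 mice, 4 of the 104 combinations of gene and group had a mouse whose gap to its nearest neighbour took up more than 0.71 of the range of the group, where chance gives about 1 in 20. In WT LFD, mouse 5 was high for Hmgcs1 at 156 CPM and for Srebf2 at 57.6 CPM. In Adn-Lpin1-/- LFD, mouse 2 was high for Lss at 50.1 CPM. In WT HFD, mouse 3 was low for Insig1 at 104 CPM.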

How the results depend on the processing

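For the genes of each comparison that were called or had an unadjusted p below 0.05, no value changed sign under the alternatives, 1668 kept their side of the threshold, 68 passed it newly and 49 no longer passed. The 18 genes called between the genotypes on the HFD were 17 to 19 under the alternatives that keep all mice and 15 (without Adn-Lpin1-/- HFD mouse 3) to 19 with 1 mouse left out. On the LFD, 4 became 9 with voom, quality weights and pools, and 1 to 4 with 1 mouse left out. By diet in WT mice, 0 became 5 with voom, 2 with the pools, 8 with both, and 0 to 2 with 1 mouse left out (2 without WT LFD mouse 5 or WT HFD mouse 5). By diet in Adn-Lpin1-/- mice, 5 became 8 by DESeq2's Wald test, 11 with the pools, 15 with voom and pools, and 3 to 8 with 1 mouse left out. For the genotype effect by diet, 0 became 2 by the Wald test, 1 with the pools and 14 with voom and pools. The cause of these shifts was not tested.

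The mean correlation of deviations between mice of the same replicate number was -0.06 to 0.03, with single pairs from -0.41 to 0.27. Mice of different numbers were not compared, so these values cannot decide whether the numbers pair the mice. With the replicate number as a block, 2 genes were called on the LFD, in place of 4, and 4 by diet in Adn-Lpin1-/- mice, and Acat2 and Mylip on the LFD, Scap on the HFD and Dhcr7 by diet lost their calls.

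The intervals were wide for Sqle and Idi1, and the part of depth in their width was not tested. Reads in the overlaps of Fdft1, Ggps1 and Tm7sf2 with neighbouring genes, and reads shared by Acat2 and Acat3, could not be assigned further. The length of feeding differs between the labels and the methods.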
